A study of Mus musculus with 6 samples.

Results

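The FACIT collagens, the collagens that sit on the surface of collagen fibrils, were examined by gene symbol in healing flexor digitorum longus (FDL) tendons of the mouse hind paw. The list held 9 genes of 7 collagen types (*Col9a1*, *Col9a2* and *Col9a3* of type IX, *Col12a1*, *Col14a1*, *Col16a1*, *Col19a1*, *Col20a1* and *Col22a1*), and all 9 were among the 53819 genes of the deposited count table. RNA was sequenced from 3 DTRScxLin mice (Scx-Cre+; DTR F/+) and 3 WT littermates (Scx-Cre-; DTR F/+), adults of both sexes, with 1 tendon per library. Both groups carried the silenced diphtheria toxin receptor allele, both underwent transection and repair of the tendon, and both received 5 daily local injections of diphtheria toxin (DT) about 2 weeks before harvest at D28 post-surgery. The receptor is switched on by Scx-Cre, which is not inducible, so every cell with a history of *Scx* expression could be depleted, and the study had no reporter with which to measure how many were lost. The comparison of DTRScxLin with WT tendons asked what transcripts differed after depletion of the Scleraxis lineage.

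FACIT stands for fibril-associated collagens with interrupted triple helices. Fibrillar collagens such as type I form the body of a tendon fibril, while FACIT molecules lie along its surface and reach outward with large noncollagenous domains. Types XII and XIV are the main fibril-surface collagens of tendon, type IX coats the fibrils of cartilage, type XVI is made by fibroblasts and smooth muscle cells, and type XXII is laid down at tissue junctions, above all where muscle meets tendon. Types XIX and XX are sparse in most adult tissues.

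RefSeq promoter windows on GRCm38.p6 were matched for 5 of the 9 genes, *Col9a1*, *Col9a2*, *Col16a1*, *Col19a1* and *Col20a1*. *Col9a1* is shown because it had the lowest log2 fold change of the list and is known to start from separate promoters, which give a long and a short protein, and *Col16a1* is shown beside it as an abundant member. Each sequence is the 250 bases before the start, 5′ to 3′ on the plus strand. The *Col9a1* windows are at chr1:24177360-24177609 and chr1:24194953-24195202, with starts 17593 bases apart, and the *Col16a1* window is at chr4:130047590-130047839. Capitals mark E-boxes (CANNTG, the letters that basic helix-loop-helix factors such as Scleraxis bind) and GC boxes (GGGCGG, either strand).
Col9a1 upstream window: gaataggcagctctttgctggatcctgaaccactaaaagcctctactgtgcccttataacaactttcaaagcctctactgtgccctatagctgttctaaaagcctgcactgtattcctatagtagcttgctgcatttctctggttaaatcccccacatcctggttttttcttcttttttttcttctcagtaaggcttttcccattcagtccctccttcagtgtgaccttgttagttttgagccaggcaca
Col9a1 downstream window: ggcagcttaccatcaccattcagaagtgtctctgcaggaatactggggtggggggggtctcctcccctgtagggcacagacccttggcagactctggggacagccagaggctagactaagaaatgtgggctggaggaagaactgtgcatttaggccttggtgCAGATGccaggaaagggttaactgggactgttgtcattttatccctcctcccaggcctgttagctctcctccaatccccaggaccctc
Col16a1 window: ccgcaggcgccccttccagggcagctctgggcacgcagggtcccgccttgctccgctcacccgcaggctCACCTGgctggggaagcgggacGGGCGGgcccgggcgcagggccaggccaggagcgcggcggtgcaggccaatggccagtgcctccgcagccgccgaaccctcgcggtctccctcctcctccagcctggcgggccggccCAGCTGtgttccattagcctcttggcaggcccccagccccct
The upstream *Col9a1* window held 0 E-boxes and 0 GC boxes, the downstream window 1 E-box and 0 GC boxes, and the *Col16a1* window 2 E-boxes and 1 GC box. Of 32851 promoter windows of this length, 66.2% held an E-box and 32.7% a GC box, so these matches are common and are given as a description. The GC content was 43.6% and 56.0% in the *Col9a1* windows and 75.6% in that of *Col16a1*. The counts are summed per gene and do not separate the *Col9a1* starts.

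The libraries held between 42744138 and 48854310 counts on genes, so counting noise was small for the abundant members and n = 3 set the precision. Levels are given as CPM, the usual depth-scaled count (a gene's count over the library total), after TMM normalization, which scales libraries to a common composition. Tendon identity was clear, with *Tnmd*, a tenocyte membrane protein, at 1345 ± 284 CPM in the WT group and 1660 ± 347 CPM in the DTRScxLin group (mean ± SD, n = 3 each). Transcripts of neighbouring tissues differed between libraries. A list of 30 skeletal muscle genes summed to 23073 to 31896 CPM in WT and to 4226, 28458 and 7200 CPM in DTRScxLin replicates 1 to 3, and 29 of the 30 were fitted lower. A list of 12 keratinocyte genes, all fitted lower, summed to 3081, 1884 and 90.5 CPM in WT replicates 1 to 3 and to 39.0 to 324 CPM in DTRScxLin tendons. *Xist*, the transcript of the inactive X chromosome, had at least 49303 counts in WT replicate 2 and DTRScxLin replicates 2 and 3, and at most 4 in the others. In whole tendons, fewer cells of a type and less RNA per cell cannot be told apart.

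The FACIT collagens differed widely in level, and *Col12a1*, *Col16a1* and *Col14a1* held most of their counts. Of all counts on the 9 genes, 67.3% were on *Col12a1*, 17.03% on *Col16a1* and 12.7% on *Col14a1*. Per kilobase of exon, in GENCODE vM21 gene models, *Col12a1* averaged 77.5 CPM over the 6 libraries, *Col16a1* 44.3, *Col14a1* 31.8, *Col22a1* 4.06, *Col9a1* 1.21, *Col20a1* 1.15, *Col9a3* 0.261, *Col9a2* 0.166 and *Col19a1* 0.0216. On this scale *Col12a1* was above *Col16a1* in 6 of 6 libraries, by 1.63 to 1.93 times, although the ranges of the genes over all libraries overlapped. *Col16a1* was above *Col14a1* in 6 of 6 libraries as well, but by as little as 1.01 times. Clear steps separated *Col14a1* from *Col22a1* and *Col20a1* from *Col9a3*, whose ranges did not overlap. *Col9a1* and *Col20a1* could not be ordered, since each was the higher in 3 of 6 libraries. Nor were *Col9a3* and *Col9a2* separated, with *Col9a3* higher in 4 of 6.

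**Figure D1:**
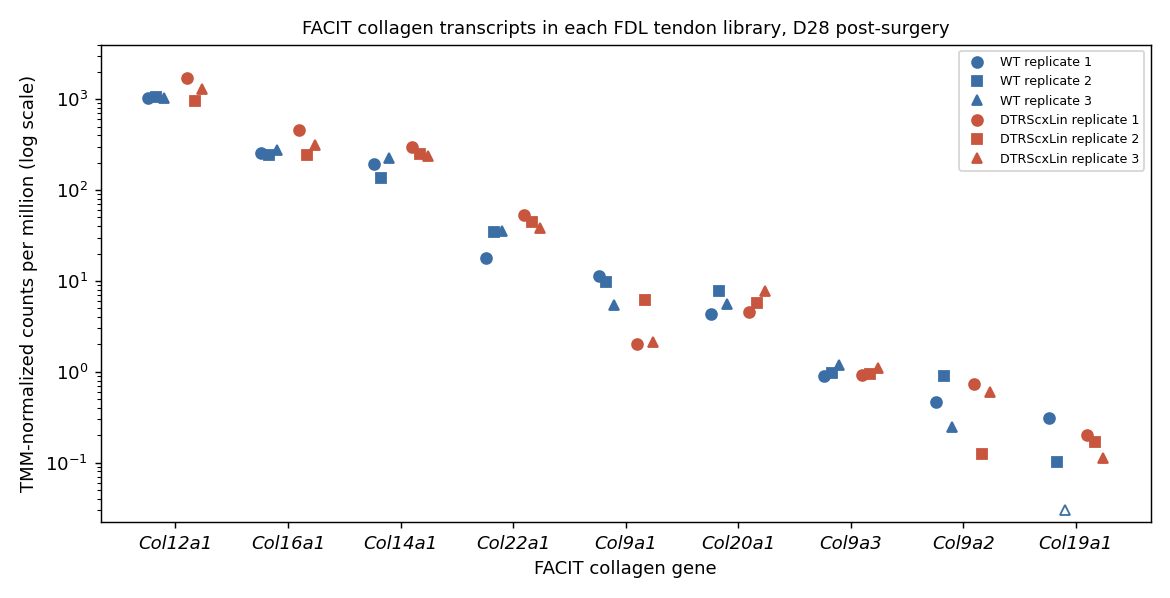
TMM-normalized level in CPM (log scale) of the 9 FACIT collagens in each library, WT in blue and DTRScxLin in red, with the symbol giving the replicate; the open triangle stands for a count of 0 and is drawn near the lower edge, at no measured level. The levels run from 953 to 1703 CPM for *Col12a1* down to at most 0.310 CPM for *Col19a1*, and the groups are apart for *Col14a1* and *Col22a1*.

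No FACIT collagen passed the test across all genes. By edgeR's quasi-likelihood test on the 17496 genes past the filter on low counts, 0 of the 8 FACIT collagens tested had an adjusted p under 0.05 (0.442 to 0.980), beside 0% of all genes. At an unadjusted p under 0.05, 2 of the 8 passed in edgeR (*Col14a1* and *Col9a1*), where 11% of all genes did (5.52% higher and 5.45% lower). DESeq2 gave 1 of the 8, *Col9a1*, an adjusted p under 0.05, beside 2.65% of all genes (1.12% higher and 1.53% lower), and 3 had an unadjusted p under 0.05, beside 12.8% of all genes to which DESeq2 gave an adjusted p. The DTRScxLin and WT libraries did not overlap in 2 of the 8, *Col14a1* and *Col22a1*, both with all DTRScxLin libraries above, against 16.8% of all genes tested in either direction and 8.96% in this one (7.85% had all DTRScxLin libraries below). In all, 5 were fitted higher, as were 51.5% of all genes, and 3 lower, with a median log2 fold change of 0.18 against 0.0082 over all genes tested. The 8 did not move as a block: their log2 fold changes ran from -1.36 for *Col9a1* to 0.62 for *Col22a1*.

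**Figure D2:**
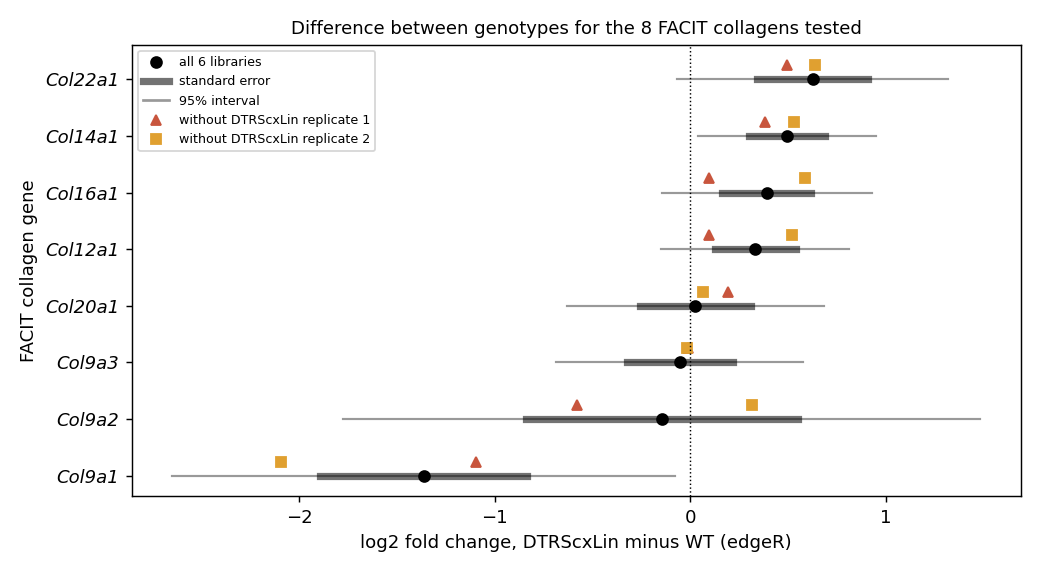
Log2 fold change (DTRScxLin minus WT, edgeR) of the 8 FACIT collagens tested, from all 6 libraries (black points), with the standard error as a thick bar, the 95% interval as a thin line, and the values without DTRScxLin replicate 1 (triangles) and without DTRScxLin replicate 2 (squares). *Col12a1* and *Col16a1* lie near 0 without DTRScxLin replicate 1 (0.10 and 0.09), while *Col9a1* stays below 0 in both (-1.10 and -2.09).

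*Col12a1*, which encodes the long type XII chain that bridges neighbouring fibrils, was even across WT tendons and uneven across DTRScxLin tendons. It had 1037, 1059 and 1039 CPM in WT replicates 1 to 3, a coefficient of variation of 1.16%. In DTRScxLin replicates 1 to 3 it had 1703, 953 and 1287 CPM, a coefficient of variation of 28.6%. Thus DTRScxLin replicates 1 and 3 were above every WT library and DTRScxLin replicate 2 was below every WT library. In DTRScxLin relative to WT tendons the log2 fold change reached 0.33 ± 0.21 (SE, 95% interval -0.15 to 0.81), with an edgeR adjusted p = 0.562. Without DTRScxLin replicate 1 it was 0.10, and without DTRScxLin replicate 2 it was 0.52 (adjusted p = 0.155 in edgeR). Among libraries with *Xist*, where only WT replicate 2 stands for its group, the DTRScxLin mean was 1.06 times WT. Among those without it, where only DTRScxLin replicate 1 stands for its group, the DTRScxLin mean was 1.64 times WT.

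*Col16a1*, the type XVI gene whose promoter is printed above, had the same shape. It had 258, 243 and 274 CPM in WT replicates 1 to 3 and 463, 241 and 313 CPM in DTRScxLin replicates 1 to 3. Again DTRScxLin replicate 1 was the highest of the 6 libraries and DTRScxLin replicate 2 the lowest. The fitted log2 fold change amounted to 0.39 ± 0.23 (SE, 95% interval -0.14 to 0.93), with an edgeR adjusted p = 0.540, and it was 0.09 without DTRScxLin replicate 1. DTRScxLin replicate 1 was also the library with the lowest sum of skeletal muscle genes, and DTRScxLin replicate 2 the DTRScxLin library with the highest, for which see the sums given above. The part of muscle transcripts in these values was not tested.

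*Col14a1*, the type XIV gene and a marker of fibroblasts of connective tissue sheaths, was higher in each DTRScxLin library than in each WT library. It had 193, 136 and 226 CPM in WT replicates 1 to 3 and 299, 249 and 235 CPM in DTRScxLin replicates 1 to 3. The margin was narrow, between WT replicate 3 and DTRScxLin replicate 3. The log2 fold change of 0.49 ± 0.19 (SE, 95% interval 0.04 to 0.95) had an unadjusted p = 0.0368 and an adjusted p = 0.442 in edgeR over all genes. DESeq2 gave an adjusted p = 0.162. Without WT replicate 2, the lowest library, the log2 fold change was 0.31, and it lay between 0.38 and 0.66 without any other. The DTRScxLin mean was 1.78 times WT among libraries with *Xist* and 1.42 times among those without it. Only WT replicate 2 stands for its group with *Xist*, and only DTRScxLin replicate 1 without it. As the groups did not overlap, DTRScxLin had to be higher in both splits, which adds no evidence. A list of 8 adventitial and sheath fibroblast markers had 5 genes fitted higher and 3 lower and overlapping sums, from 3501 to 4991 CPM in WT and from 3561 to 3918 CPM in DTRScxLin tendons. *Prg4* was the largest part of each sum, at 1441 to 2635 CPM in WT and 1219 to 1675 CPM in DTRScxLin tendons. *Pi16* alone had all DTRScxLin libraries above WT (8.96% of all genes), at 451 to 512 CPM in WT and 525 to 747 CPM in DTRScxLin tendons. None had all below, and DESeq2 called 0 of the 8. A pseudogene on the opposite strand within *Col14a1*, *Gm18787*, had 58, 41 and 44 counts in WT and 108, 169 and 104 in DTRScxLin replicates 1 to 3; its exons do not overlap those of *Col14a1* in GENCODE vM21.

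The balance between the tendon FACIT collagens and the fibril they coat was measured as ratios within each library, which need no normalization; the ratios of the single genes to type I collagen were added after the data were seen. *Col12a1* had 4.08, 4.01 and 3.55 counts per 100 counts of type I collagen (*Col1a1* and *Col1a2* together) in WT replicates 1 to 3, and 4.12, 3.71 and 3.74 in DTRScxLin replicates 1 to 3. This ratio ranged from 3.55 to 4.12, although *Col12a1* itself ranged 1.79 times over the libraries. The log2 ratio of *Col12a1* and *Col14a1* to type I collagen was -4.45 ± 0.0814 in the WT group and -4.43 ± 0.0658 in the DTRScxLin group (mean ± SD, n = 3 each), a difference of 0.0273 (p = 0.7, exact permutation test, two-sided). The smallest p that 3 against 3 libraries allow is 0.1. Per 100 type I counts, *Col14a1* had 0.760, 0.514 and 0.774 across WT replicates 1 to 3 and 0.722, 0.968 and 0.682 across DTRScxLin replicates 1 to 3, so the groups overlapped on this scale. The highest value was that of DTRScxLin replicate 2, the library with the lowest *Col12a1* level in CPM. Per 100 type I counts, *Col12a1* was lowest in WT replicate 3, at 3.55.

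There were 5.37, 7.80 and 4.59 *Col12a1* counts per *Col14a1* count in WT replicates 1 to 3 and 5.71, 3.83 and 5.49 in DTRScxLin replicates 1 to 3. The extremes of the 6 libraries were WT replicate 2 and DTRScxLin replicate 2, and the groups overlapped. The log2 ratio was 2.53 ± 0.393 in the WT group and 2.30 ± 0.316 in the DTRScxLin group (mean ± SD, n = 3 each), a difference of -0.23 (p = 0.6, exact permutation test, two-sided). With 3 against 3 libraries this exact test cannot pass 0.05, and without WT replicate 2 the difference was -0.0092.

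**Figure D3:**
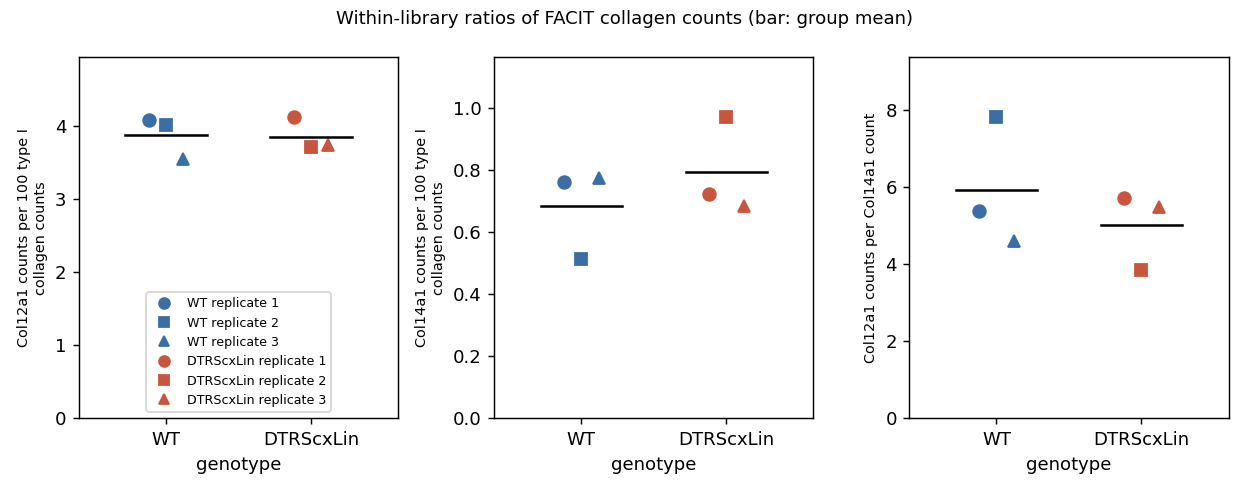
*Col12a1* (left) and *Col14a1* (middle) counts per 100 counts of *Col1a1* and *Col1a2*, and *Col12a1* counts per *Col14a1* count (right), in each library, with the group mean as a bar and every axis starting at 0. *Col12a1* per type I collagen stays between 3.55 and 4.12 in all 6 libraries, while *Col14a1* per type I collagen runs from 0.514 to 0.968.

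*Col22a1*, the junction collagen, had the highest log2 fold change of the list. It had 17.9, 34.6 and 35.6 CPM in WT replicates 1 to 3 and 52.7, 44.7 and 38.5 CPM in DTRScxLin replicates 1 to 3. The groups did not overlap, and WT replicate 1 stood well below the other WT libraries. Its log2 fold change, 0.62 ± 0.28 (SE, 95% interval -0.07 to 1.32), had an unadjusted p = 0.0690 and an adjusted p = 0.477 in edgeR. Without WT replicate 1 it was 0.37, and DESeq2 on all 6 libraries gave an adjusted p = 0.172. Within libraries with *Xist* the DTRScxLin mean was 1.203 times WT, and 1.97 times within those without it. Again WT replicate 2 and DTRScxLin replicate 1 each stand alone for their group there. With no overlap between the groups, DTRScxLin had to be higher in both splits.

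Genes of the muscle side of the junction did not share this order. Of 6 such genes, 2 were fitted higher and 4 lower, with summed levels of 444 to 514 CPM in WT and 391 to 524 CPM in DTRScxLin tendons. Only *Itga7*, the laminin receptor subunit of muscle, did not overlap, with all DTRScxLin libraries below WT (7.85% of all genes). It had 86.4 ± 2.93 CPM in the WT group and 57.9 ± 9.90 CPM in the DTRScxLin group (mean ± SD, n = 3 each). Its adjusted p was 0.274 in edgeR and 0.0095 in DESeq2, which called it alone of the 6 (1.53% of all genes were called lower). In a list of 11 muscle regeneration genes, 8 were fitted higher and 3 lower, and the sums were 110 to 144 CPM in WT and 103, 318 and 252 CPM in DTRScxLin replicates 1 to 3. *Col22a1* was highest in DTRScxLin replicate 1, the library in which that sum was lowest. A large part of the WT sums was *Chrna1*, at 32.4 to 48.5 CPM in WT and 10.6, 44.3 and 17.3 CPM in DTRScxLin replicates 1 to 3. *Myh3* alone of this list had all DTRScxLin libraries above WT (8.96% of all genes), at 11.1 to 22.3 CPM in WT and 24.2 to 99.4 CPM in DTRScxLin tendons. None had all below. DESeq2 called 2 of the 11 higher (1.12% of all genes) and none lower. An antisense gene whose exons overlap those of *Col22a1*, *Gm16308*, had at most 2 counts in any library.

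The chains of type IX collagen, which assemble as a heterotrimer of the *Col9a1*, *Col9a2* and *Col9a3* products, are described side by side, and the differences between them were not tested. *Col9a1* had 11.3, 9.74 and 5.39 CPM in WT replicates 1 to 3 and 2.00, 6.13 and 2.13 CPM in DTRScxLin replicates 1 to 3. Only DTRScxLin replicate 2 reached into the WT range, above WT replicate 3. A log2 fold change of -1.36 ± 0.53 (SE, 95% interval -2.65 to -0.08) was fitted, with an unadjusted p = 0.0407 and an adjusted p = 0.447 in edgeR. DESeq2 gave an adjusted p = 0.0420, and edgeR without DTRScxLin replicate 2 gave a log2 fold change of -2.09 and an adjusted p = 0.0271. All DTRScxLin libraries were below WT both with *Xist* (0.424 times) and without it (0.240 times). Only WT replicate 2 stands for its group with *Xist*, and only DTRScxLin replicate 1 without it. The libraries that overlap, DTRScxLin replicate 2 and WT replicate 3, were parted by this split.

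The libraries with least *Col9a1* were also those with least skeletal muscle transcripts. The skeletal muscle sum was 31896, 28364 and 23073 CPM in WT replicates 1 to 3 and 4226, 28458 and 7200 CPM in DTRScxLin replicates 1 to 3 and was lowest, as *Col9a1* was, in DTRScxLin replicates 1 and 3. The keratinocyte sum was highest in WT replicates 1 and 2, the libraries with most *Col9a1*, but among the others it was highest in DTRScxLin replicate 3, where *Col9a1* was among the lowest. Of the cartilage markers, *Col2a1*, the fibrillar collagen of cartilage, had 7.84 to 11.9 CPM and *Matn1* a count of 0 in 4 of 6 libraries, while *Acan*, the aggrecan gene, had 120 to 265 CPM. The cartilage list, with 6 of its 10 tested genes fitted lower and 4 higher, summed to 503, 559 and 653 CPM in WT replicates 1 to 3 and 381, 431 and 472 CPM in DTRScxLin replicates 1 to 3. Within WT this order was the opposite of that of *Col9a1*. The gap between the groups in this sum was due to *Chad*, a cartilage and tendon matrix protein, which had 237 to 267 CPM in WT and 26.1, 176 and 84.2 CPM in DTRScxLin replicates 1 to 3. Without *Chad* the groups overlapped, at 266, 292 and 388 CPM in WT replicates 1 to 3 and 355, 255 and 387 CPM in DTRScxLin replicates 1 to 3. *Epyc*, a small proteoglycan, had all DTRScxLin libraries above WT (8.96% of all genes), and *Matn3*, *Chad* and *Cytl1* had all below (7.85% of all genes). DESeq2 called *Epyc* higher (1.12% of all genes) and none of the cartilage list lower. The part of muscle, skin or cartilage transcripts in the *Col9a1* difference was not tested.

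**Figure D4:**
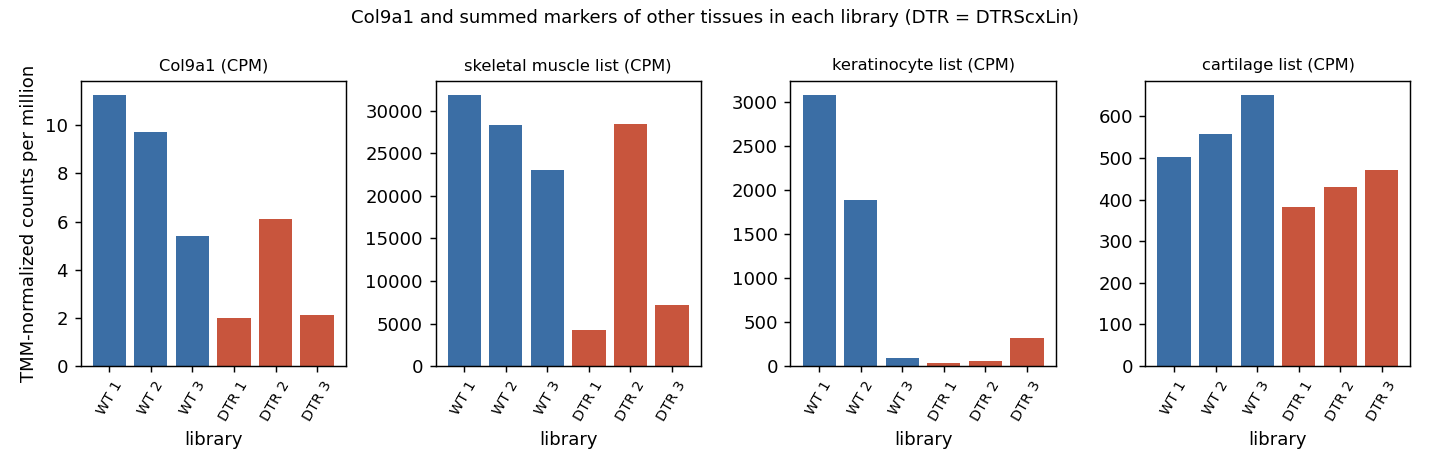
*Col9a1* and the summed skeletal muscle, keratinocyte and cartilage lists in each library, as TMM-normalized CPM with axes from 0, WT in blue and DTRScxLin in red. DTRScxLin replicates 1 and 3 are the lowest libraries for *Col9a1* (2.00 and 2.13 CPM) and for skeletal muscle, and WT replicates 1 and 2 the highest for *Col9a1* and for keratinocyte genes.

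*Col9a3* differed little between libraries. Its counts were 41, 47 and 53 across WT replicates 1 to 3, against 41, 45 and 49 across DTRScxLin replicates 1 to 3 (log2 fold change -0.05, 95% interval -0.69 to 0.58, edgeR adjusted p = 0.958). Its exons overlap those of *Tcfl5* on the opposite strand, which had 911 to 1408 counts, and since the strand setting of the counting was not given in the sources used here, the *Col9a3* values are uncertain. *Col9a2* had 21, 44 and 11 counts in WT and 33, 6 and 27 in DTRScxLin replicates 1 to 3, too few to resolve a difference (95% interval of the log2 fold change -1.77 to 1.48). Per kilobase, the *Col9a1* level was 1.74 CPM in WT and 0.674 CPM in DTRScxLin tendons, against 0.266 and 0.256 CPM for *Col9a3* and 0.174 and 0.158 CPM for *Col9a2*.

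The remaining members were low. *Col20a1*, the type XX gene, had 4.29, 7.67 and 5.64 CPM in WT replicates 1 to 3 and 4.49, 5.65 and 7.79 CPM in DTRScxLin replicates 1 to 3. Both groups covered the same range, with a log2 fold change of 0.03 (95% interval -0.63 to 0.68, edgeR adjusted p = 0.980). *Col19a1*, the type XIX gene, had 14, 5 and 0 counts in WT and 9, 8 and 5 in DTRScxLin replicates 1 to 3 and was the 1 member that did not pass the filter, so it was not tested. A count of 0 allows up to 3 counts, or 0.0679 CPM, in WT replicate 3, which covers counting error only.

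For each tested member, the genes whose log2 CPM, centred on each gene's mean, differed least from it over the 6 libraries were sought among the 14409 tested genes whose normalized counts averaged 50 or more. The nearest to *Col12a1* were *Fam20a*, a secretory pathway pseudokinase, and *Wnt5b*, with root mean square differences of 0.058 and 0.060 on the log2 scale. The nearest to *Col16a1* were *Fn1*, the fibronectin gene (0.051), and *C1qtnf6* (0.058). *Fn1* had 12938.5, 13660 and 14301 CPM in WT replicates 1 to 3 and 23921, 12857 and 16120 CPM in DTRScxLin replicates 1 to 3, thus with the same high and low libraries as *Col16a1*.

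*Col9a1* was nearest to *Tuba4a*, a tubulin gene (0.080), and *Tpd52l1* (0.084). *Col14a1* was nearest to *Mcm5*, a subunit of the replicative helicase (0.096), and *Gm14548* (0.108), and *Col22a1* to *Ankrd34a* (0.138) and *Tnfaip8l3* (0.145). *Col20a1* was nearest to *BC030343* (0.064) and *Hspa12a* (0.081), and *Col9a3* to *Tchp* (0.032) and *Zfp61* (0.033). No close neighbour was found for *Col9a2*, for which *Nkx6-1* (0.419) and *Adamts4* (0.451) came nearest. With so many candidates and 6 libraries, near patterns are to be found for most genes, and these values are a description.

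The fibrillar collagens, whose fibrils FACIT molecules coat, were mostly fitted higher. Of 11 fibrillar collagen genes, all tested, 9 were fitted higher and 2 lower, with a median log2 fold change of 0.39, and 6 had all DTRScxLin libraries above WT (*Col3a1*, *Col5a1*, *Col5a2*, *Col5a3*, *Col11a1* and *Col24a1*), against 8.96% of all genes. edgeR called 0 of the 11 after adjustment, 6 had an unadjusted p under 0.05 (11% of all genes), and DESeq2 called 3 of them, *Col5a1*, *Col5a3* and *Col24a1* (2.65% of all genes). *Col5a1*, a chain of type V collagen, which nucleates fibrils, had 1239 ± 79.9 CPM in the WT group and 1960 ± 587 CPM in the DTRScxLin group (mean ± SD, n = 3 each). *Col1a1* was highest in DTRScxLin replicate 1, at 16703 CPM, and lowest in DTRScxLin replicate 2, at 9476 CPM. These were also the highest and lowest libraries of *Col12a1* and *Col16a1*, while the WT libraries of the 3 genes ran in different orders. *Col1a2* shared only the highest library, at 24635 CPM. Its lowest was WT replicate 1, at 15512 CPM, and DTRScxLin replicate 2 had 16203 CPM. The difference between the lists was not tested.

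Partners of FACIT collagens on the fibril surface were mixed. Of 15 tested, 9 were fitted higher and 6 lower (median log2 fold change 0.11), with all DTRScxLin libraries above WT in *Kera*, *Aspn*, *Thbs4* and *Fbn1* and all below in *Matn3* and *Matn4* (8.96% and 7.85% of all genes). DESeq2 called *Aspn*, *Thbs4* and *Fbn1* higher (1.12% of all genes), and edgeR called 0 with 6 at an unadjusted p under 0.05 (11% of all genes). Decorin and fibromodulin, the small proteoglycans to which types XII and XIV bind, overlapped between the groups, *Dcn* with a log2 fold change of 0.04 and *Fmod* with one of -0.17. So did *Tnxb*, the tenascin that links to type XII collagen, at -0.10, and *Comp*, a binding partner of types IX and XII, at -0.18. The matrilin *Matn3*, a partner of type IX collagen in cartilage, had 10.3 to 11.96 CPM in WT and 7.34 to 9.74 CPM in DTRScxLin tendons.

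Among 9 tested collagen receptors, 7 were fitted higher and 2 lower (median log2 fold change 0.17). All DTRScxLin libraries were above WT in *Itga10* and *Mrc2*, an integrin subunit and an endocytic receptor for collagen (8.96% of all genes). All were below in *Ddr1*, a discoidin domain receptor (7.85% of all genes), which DESeq2 called lower (1.53% of all genes). edgeR called 0 of the 9, with 3 at an unadjusted p under 0.05 (11% of all genes). Of 30 collagen-processing enzymes, 27 were fitted higher and 3 lower (median log2 fold change 0.23), 9 had all DTRScxLin libraries above WT, and 1, *Pcolce2*, an enhancer of procollagen cleavage, had all below, against 8.96% and 7.85% of all genes. *P4ha3*, a prolyl 4-hydroxylase subunit, had 55.4 ± 1.63 CPM in the WT group and 96.0 ± 18.8 CPM in the DTRScxLin group (mean ± SD, n = 3 each), and DESeq2 called it higher, with *Adamts14* and *Lox* (1.12% of all genes). edgeR called 0 of the 30, with 10 at an unadjusted p under 0.05 (11% of all genes).

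**Figure D5:**
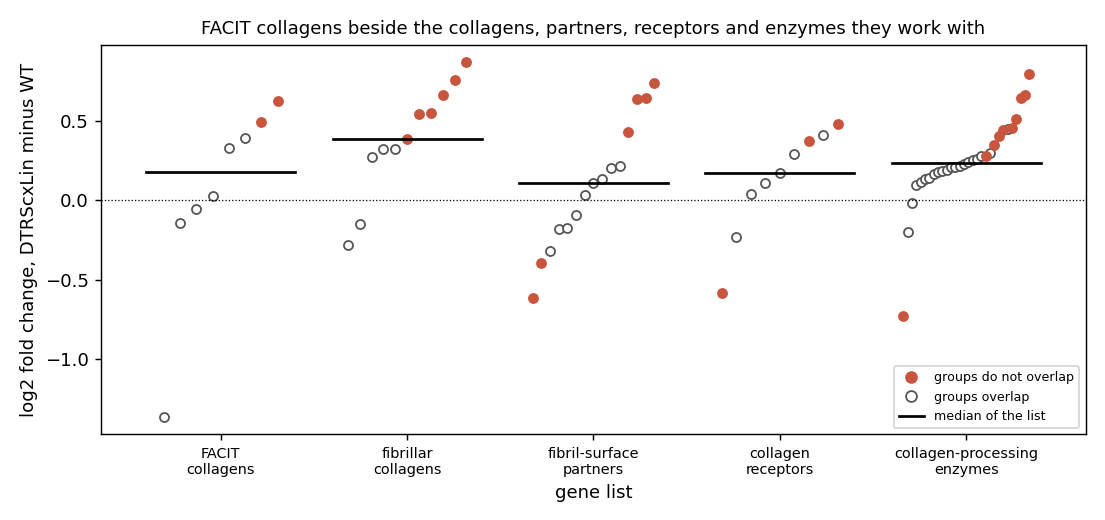
Log2 fold change (DTRScxLin minus WT, edgeR) of each tested gene of the FACIT collagens, fibrillar collagens, fibril-surface partners, collagen receptors and collagen-processing enzymes, with filled points where the groups do not overlap and a bar at the median of each list. The medians are 0.18, 0.39, 0.11, 0.17 and 0.23, and *Col9a1* at -1.36 is the lowest point drawn.

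The sum of the tendon cell markers was, as *Col14a1* and *Col22a1* were, higher in each DTRScxLin library than in each WT library. That gap was due to *Thbs4*, at 5317 to 5879 CPM in WT and 7784 to 9707 CPM in DTRScxLin tendons. Of the other abundant markers, *Fmod* and *Tnmd* overlapped between the groups. *Kera* did not, at 492 to 681 CPM in WT and 713 to 936 CPM in DTRScxLin tendons. *Kera* and *Thbs4* stand in this list and in that of the partners, as *Matn3* does in the partner and cartilage lists. Of the 9 tendon markers, 7 were fitted higher and 2 lower, with sums of 12711 to 15670 CPM in WT and 16339 to 17908 CPM in DTRScxLin tendons. In 5 of them, *Scx*, *Egr1*, *Egr2*, *Kera* and *Thbs4*, all DTRScxLin libraries were above WT (8.96% of all genes). DESeq2 called 2 higher (1.12% of all genes). *Scx*, the gene that defines the depleted lineage, had 48.0 to 66.8 CPM in WT and 74.2 to 76.9 CPM in DTRScxLin tendons. Macrophage markers were split evenly, 5 and 5, and 8 of 9 endothelial markers were fitted lower, with sums of 3595 to 4526 and 662 to 853 CPM in WT and 3862 to 4498 and 690 to 741 CPM in DTRScxLin tendons. All 7 adipocyte markers were fitted lower, 6 of them below WT in each DTRScxLin library (7.85% of all genes) and 5 called lower by DESeq2 (1.53% of all genes). Their sums were 112 to 205 CPM in WT and 87.3 to 145 CPM in DTRScxLin tendons. Most of each sum was *Fabp4*, the marker whose groups overlapped, at 100 to 168 CPM in WT and 84.8 to 138 CPM in DTRScxLin tendons. *Adipoq* had 4.05 ± 1.93 CPM in the WT group and 0.773 ± 0.514 CPM in the DTRScxLin group (mean ± SD, n = 3 each). Of 11 Schwann cell markers 8 were fitted lower and 3 higher, with sums of 633 to 1131 CPM in WT and 485 to 777 CPM in DTRScxLin tendons. *Prx* and *Ncmap* were below WT in each DTRScxLin library (7.85% of all genes), and DESeq2 called these and *Mbp* lower (1.53% of all genes). The part of these cell types in the FACIT values was not tested.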

How the data were processed

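Bulk RNA was sequenced from 6 FDL tendons. Single-end reads were summed over genes by the authors with featureCounts after trimming in FastP, and the deposited values are raw whole-number counts. They also deposited a signal table of the counts divided by a DESeq2 size factor (DESeq2 1.22.1 per the labels). The aligner, genome build, annotation and strand setting were not given in the sources used here.

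Genotypes and replicates came from the labels. Differential expression was tested with edgeR 4.0.16 in R 4.3.3 (filterByExpr, TMM, robust quasi-likelihood test, Benjamini-Hochberg over 17496 genes, threshold 0.05), with DESeq2 1.42.0 and limma 3.58.1 as alternatives. Standard errors were obtained as |log2 fold change| over the root of the F statistic. The test was checked on simulated data. Replicates differed by 40.3 to 205 chi-square per degree of freedom, so none was a duplicate. Exon lengths came from GENCODE vM21, which held 92.8% of the listed symbols. Named genes were the 9 members, genes of the lists given in the results (those whose groups did not overlap or that stand early in a list, and a few binding partners, *Itga7*, *Acan*, *Chrna1* and the cartilage sum without *Chad* chosen after their values were seen), and the 2 nearest patterns per member. Members and lists were chosen with earlier results of these data known. DESeq2's adjusted p was set aside by its own filter for *Col19a1*.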

Additional observations from a re-analysis of the deposited data

How the results depend on the processing

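The number of genes called was 0 with edgeR, 466 with DESeq2, 83 without a filter on low counts, 1 with the replicate number as a block, and 0 to 544 with 1 library left out, where 544 came without DTRScxLin replicate 2. limma-voom, RLE and library size normalization, a minimum of 10 counts in every library, limma on log2(value + 1) of the authors' normalized table, and the sex of the library by *Xist* as a term (chosen after the data were seen) gave 0. *Col9a1* was called by DESeq2 (log2 fold change -1.37) and, with values of -2.09 to -1.10 when 1 library was left out, without DTRScxLin replicate 2. *Col12a1*, *Col14a1*, *Col16a1* and *Col22a1* were higher and *Col9a1* lower under all 15 alternatives each, with left-out ranges of 0.10 to 0.52, 0.31 to 0.66, 0.09 to 0.59 and 0.37 to 0.78. The sign turned for *Col9a2* (-0.58 to 0.45 with 1 library left out), *Col9a3* (-0.137 to 0.0719) and *Col20a1* (-0.21 to 0.27, and -0.17 with sex as a term), and for the group difference (DTRScxLin minus WT) in the log2 ratio of *Col12a1* and *Col14a1* to type I collagen (-0.0103 to 0.0705). The cause was not tested. The group difference in the log2 ratio of *Col12a1* to *Col14a1* stayed below 0 with 1 library left out (-0.39 to -0.0092).

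Same-numbered libraries did not deviate together (correlations of -0.25, -0.21 and -0.73 across genes), so the numbers are not read as pairs. With the replicate block the log2 fold change of *Col14a1* was 0.52 and that of *Col9a1* -1.49, and no FACIT collagen was called. Low counts limit *Col9a2*, *Col9a3* and *Col19a1*.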
